A study of Mus musculus with 12 samples.

Results

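The genes examined were Mki67, Top2a, Ccnd1, Ccnd2 and Nes, 5 genes linked to cell division and neural progenitors, in m6A peak lists from mouse hippocampus. Their members were the peaks overlapping a fixed mm9 window around each gene. The 4 lists held 82 such peaks, which merged into 45 regions of 70674 over the genome when peaks sharing at least 1 bp were joined. The genes were chosen by their peak calls at the ages compared, so calls by age are given as a description and were not tested. The lists came from m6A immunoprecipitation (m6A-IP) libraries of poly(A)+ RNA from the whole hippocampus of male wild-type C57BL/6 mice, 2 libraries at 6 weeks of age and 2 at 2 weeks. No genotype or treatment separated them, and the number of animals behind each library is not stated. The other 8 samples of the series, which are 2 input RNA libraries at 6 weeks, 2 at 2 weeks, and adult hippocampi with Fto knocked out or intact, were not analysed here.

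N6-methyladenosine (m6A) is a methyl mark that the METTL3 and METTL14 complex places on adenosines of RNA and that FTO or ALKBH5 can remove. In m6A-IP, fragmented RNA is pulled down with an antibody, and places with more sequence tags than in unselected RNA (the control) are called as peaks. New granule neurons of the hippocampus arise from progenitors of the dentate gyrus, whose division is known to decline as a mouse grows up. Ki-67, encoded by Mki67, coats chromosomes in mitosis and is the usual marker of dividing cells. Top2a encodes the topoisomerase that untangles DNA before cells divide, cyclins D1 and D2 (Ccnd1, Ccnd2) drive entry into the cell cycle with CDK4 and CDK6, and Nes encodes nestin, an intermediate filament of neural progenitors.

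The lists held 33239 and 36494 peaks at 6 weeks (replicates 1 and 2) and 39259 and 39105 at 2 weeks, nearly all 100 bp wide. The 2-week libraries were deeper: the 6-week libraries held 16.1 and 16.5 M IP tags (M, mega), against 23.4 and 23.0 M at 2 weeks, if the deposited tag counts were scaled to 10 M. Levels below are IP tags per 10 M on that scale, and because peaks are equally wide they can be compared between genes. Replicate 1 at 6 weeks stood apart: its median caller's score per IP tag was 0.327, against 0.867 in the other 6-week library and 0.844 and 0.750 in the 2-week libraries. The part of this difference and of depth in the results was not tested. Labelled tissue was not checked against marker genes, since no gene annotation of mm9 was used, and the place of a peak in an exon or UTR is not given for the same reason.

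Mki67 was the gene whose number of peaks differed most between the ages. Replicates 1 and 2 had 0 and 3 peaks in its window at 6 weeks, against 22 and 14 at 2 weeks. The 2-week lists thus each held more Mki67 peaks than either 6-week list. Some peaks of 6-week replicate 2 and of 2-week replicate 1 overlapped others of the same list. The peaks covered 0 and 218 bp at 6 weeks and 1858 and 1414 bp at 2 weeks. The other genes were close to balanced: Nes had 5 and 6 peaks at 6 weeks and 7 and 7 at 2 weeks, Ccnd2 had 3 and 4 against 3 and 2, and Ccnd1 had 2 and 1 against 2 and 1. Top2a had no peak in any list.

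**Figure D1:**
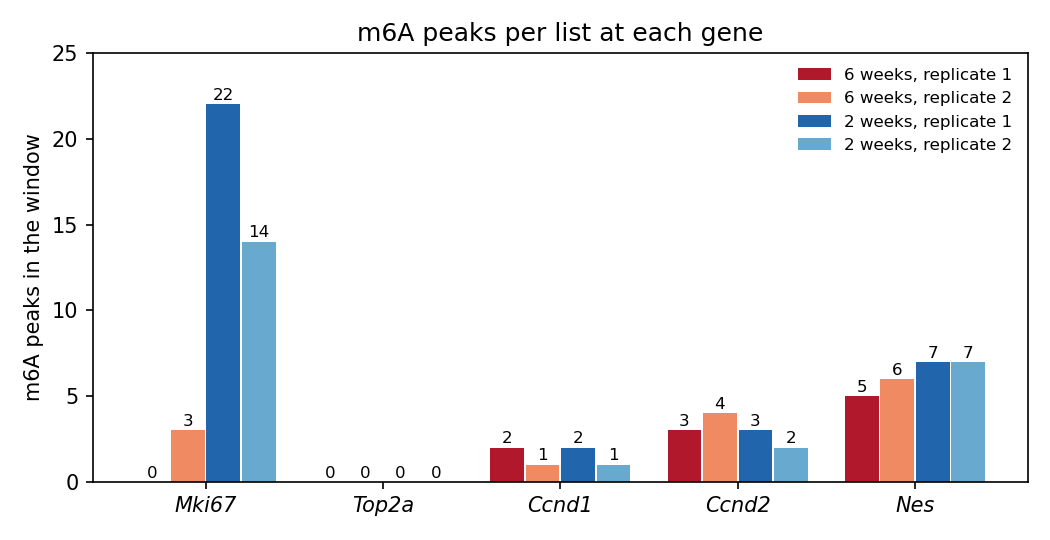
Number of m6A peaks (vertical axis) that each deposited list held in the window of each gene, with 1 bar per list. Mki67 had 0 and 3 peaks at 6 weeks against 22 and 14 at 2 weeks, Top2a had 0 in every list, and at the other genes the ages differed by at most 2 peaks between any pair of lists.

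A region was counted as called at one age only when both lists of that age and neither list of the other held a peak there. Of the 45 regions of the 5 genes, 1 (2.22%) belonged to 6 weeks only, beside 1.92% of all 70674 regions. Calls at 2 weeks only made up 8 (17.8%), beside 6.41% of all regions, and calls in all 4 lists 2 (4.44%), beside 14.4%. All 8 regions of the 2-week kind lay in Mki67, and none of the 21 regions of the other genes was of that kind. Called in a single list were 28 (62.2%), beside 58.6%, and in at least 1 list of both ages 8 (17.8%), beside 33.0%. Counting a single list as enough, 10 regions were called at 6 weeks and in no 2-week list and 27 at 2 weeks and in no 6-week list, beside 33.1% and 33.9% of all regions. These counts moved with the settings. Joining regions up to 200 bp apart gave 6 and 10 of 25 regions. A tag floor common to the lists gave 9 and 12 of 27. Without 6-week replicate 1 or replicate 2 the count at 6 weeks was 6 or 5, and without 2-week replicate 1 the count at 2 weeks was 17. Shares of all regions of this kind under these settings are not given here. Movement of the members thus cannot be told from movement of all regions. The choice of genes used these calls, so the members' shares support nothing further.

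Mki67 took up 28.5 kb on chromosome 7 (chr7:142872000-142900500, mm9) and held 24 regions. Of these, 8 were called at 2 weeks only, 0 at 6 weeks only and 0 in all 4 lists. Both ages met in 1 region, chr7:142886188-142886330, where 6-week replicate 2 had 5.45 IP tags per 10 M and 2-week replicate 1 listed peaks of 9.39 and 6.40 at one and the same interval. The other 6-week signal was a region called in replicate 2 alone, chr7:142876490-142876606, with overlapping peaks of 10.3 and 15.7. It ended 5.07 kb before the nearest 2-week peak, and no 2-week list had a peak there.

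The 2-week peaks of Mki67 were crowded together. Within chr7:142886188-142892444, a stretch of 6.26 kb, 2-week replicates 1 and 2 held 19 and 12 of their 22 and 14 peaks, and the 6-week lists held 0 and 1. This stretch carried 19 of the 24 regions and 7 of the 8 called at 2 weeks only, with a median distance of 243 bp between the centres of neighbouring regions. The eighth, chr7:142881673-142881776, lay apart from it. RefSeq's GRCm38.p6 promoter table lists Mki67 on the minus strand, so within its window higher coordinates lie toward the start of the gene.

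Levels in the 8 regions were close between the 2-week replicates in some and not in others. At chr7:142881673-142881776 they were 10.2 and 10.5 IP tags per 10 M in replicates 1 and 2. The region chr7:142886400-142886501 had 12.8 and 9.15. Replicate 1 had a pair of peaks of 6.40 each at chr7:142887360-142887519, where replicate 2 had 10. In these first 3 regions the replicates differed by less than a factor of 2, and none had a peak at 6 weeks.

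Farther along, chr7:142888721-142888873 had 8.11 and 7.84 IP tags per 10 M. The values were 10.2 and 4.79 at chr7:142889439-142889608, and 9.39 and 16.6 at chr7:142891107-142891239. Which replicate was higher thus varied from region to region. At chr7:142891521-142891627 they were 6.40 and 4.79, and at chr7:142892288-142892444 replicate 1 had peaks of 5.55 and 11.9 and replicate 2 a peak of 16.1. The lists give no tag number where no peak was called, so the 6-week level in these 8 regions is unknown and no fold change between the ages can be given.

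**Figure D2:**
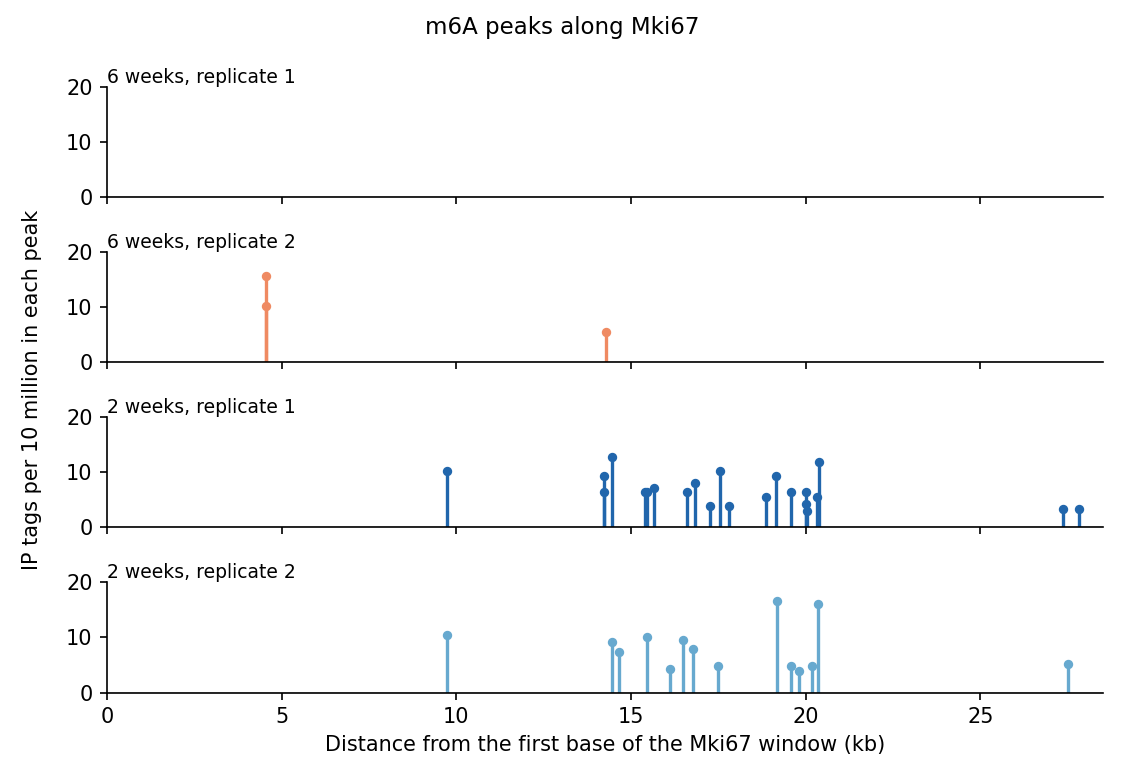
Peaks along the Mki67 window, with 1 panel per list. The horizontal axis gives the distance in kb from the first base of the window, and each stem is a peak whose height is its IP tags per 10 M. The 2-week panels show 22 and 14 peaks, 19 and 12 of them within a 6.26 kb stretch, and the 6-week panels show 0 and 3.

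Peaks at Mki67 were small. Their median was 6.40 and 7.62 IP tags per 10 M in the 2-week libraries, where the whole lists had medians of 15.4 and 15.7, and 22 of 22 and 12 of 14 lay below the list's median. The lowest held 7 IP tags (95% Poisson interval 2.81 to 14.4) and the highest 38 (26.9 to 52.2), intervals that cover counting error only. Unselected RNA was also scarce there, with median control levels of 1.02 and 0.594 tags per 10 M. This was not particular to Mki67. The 2-week medians were 1.02 and 1.19 over all regions called at 2 weeks only. Over all regions called in a single list they were 0.682 and 0.594. The authors' fold over control had medians of 7.71 and 10.6 at Mki67, against 5.97 and 7.33 in the whole 2-week lists. Over all regions called in a single list, whose peaks were also small, the 2-week medians were 6.88 and 10.5. No control tag lay under 2 of the 22 and 4 of the 14 Mki67 peaks, so their folds, and with them the median of replicate 2, rest on the 0.5 tag that stands for none. The largest, 37.5-fold, rested on 15 IP tags and no control tag.

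Regions called at 2 weeks only had low median levels over the genome, although single peaks among them reached 4814 and 9341.7 IP tags per 10 M in 2-week replicates 1 and 2. The 8 in Mki67 had median peaks of 8.75 and 9.57 IP tags per 10 M, against 7.68 and 8.71 over the 4527 regions of this kind. Regions called in all 4 lists had medians of 45.3 and 31.5 at 6 weeks and 50.8 and 54.4 at 2 weeks. In bulk tissue, fewer dividing cells and less Mki67 RNA per cell cannot be told apart. With the age-matched input libraries not analysed here, neither can be told from less methylation. The 6-week level in the 8 Mki67 regions is unknown, so no fall is shown. The part of the lower 6-week depth in the missing calls was not tested.

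Many Mki67 peaks at 2 weeks lay near the smallest levels listed at 6 weeks. The smallest peaks listed at 6 weeks had 4.34 and 5.45 IP tags per 10 M in replicates 1 and 2. Of the 22 and 14 Mki67 peaks at 2 weeks, 16 and 13 reached the first of these minima and 16 and 8 the second, and none reached the median of either 6-week list. The 5th percentile of 6-week replicate 1 (8.68) was reached by only 6 and 6 of them. That of 6-week replicate 2 (6.06) was reached by 14 and 8. With only peaks of at least 8.68 kept in every list, the highest of the lists' own 5th percentiles, 4 of the 8 regions were still called at 2 weeks only. At 8-fold or more over control, 2 were. Over all regions the 2-week share was 4.48% with the tag floor and 4.8% at 8-fold, against 6.41% with every peak. The count stayed at 8 with either 6-week library left out. Leaving out a 6-week list can only keep or add regions of this kind. Their share over all regions was then 11.6% without 6-week replicate 1 and 12.6% without replicate 2. Leaving out 2-week replicate 1 gave 14 and leaving out 2-week replicate 2 gave 16, since the lone list then needed no second call. Over all regions the shares were then 23.8% and 23.2%.

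The replicates of 2 weeks overlapped at Mki67 in 10 of 22 peaks of replicate 1 (45.5%) and 8 of 14 of replicate 2 (57.1%). In the whole 2-week lists these shares were 61.1% and 61.9%. At 6 weeks none of the 3 peaks of replicate 2 could be shared, since replicate 1 had none.

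Joining regions less than 10000 bp apart gave 23956 loci, of which the Mki67 locus had 24 regions and 8 called at 2 weeks only. A larger number called at 2 weeks only was found in 4 loci and the same number in 2 others. Of these other loci, 1 had no more regions than Mki67. A locus with fewer than 8 regions cannot hold 8 called at 2 weeks only. Since Mki67 was also chosen by these calls, its rank is a description only. For likeness, IP tags per 10 M were summed over the peaks of each locus and the Euclidean distance to Mki67 was taken over the 4 libraries on the log2(value + 1) scale. Mki67 summed to 0 and 31.45 at 6 weeks and 150.5 and 115.05 at 2 weeks, over 0 and 218 bp of peaks at 6 weeks and 1858 and 1414 bp at 2 weeks. Overlapping peaks of a list were each summed, so some bases count more than once. The nearest loci were chr14:106081021-106081131, chr17:22986782-22989580 and chrY:2475809-2503528, at distances of 0.540, 0.541 and 0.542. They held 1, 8 and 11 regions, so a like total did not mean a like number of regions.

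Top2a, whose protein acts in the same dividing cells as Ki-67, had no peak in any list within chr11:98854000-98885800, nor within 5000 bp on either side. The nearest peaks lay 18.8 and 10.7 kb below the window in the 6-week lists and 10.5 kb below it in both 2-week lists. On the other side they lay 210 and 185 kb away at 6 weeks and 16.5 kb away in both 2-week lists. A gene without a peak has no tag number in the files, so whether Top2a RNA was scarce or present without enriched m6A is not known from them.

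Among the D cyclins, Ccnd2 (chr6:127075000-127102600) carried the single region called at 6 weeks only. At chr6:127079870-127079985 the 6-week replicates had 46.5 and 47.9 IP tags per 10 M, at 9.18-fold and 3.5-fold over control, and neither 2-week list had a peak. The 6-week replicates had nearly equal levels there and unequal folds, with control levels of 5.07 and 13.7 tags per 10 M. A peak of 25.4 in 6-week replicate 2 lay 155 bp beyond it and another of 21.8 lay on the other side, both called in that list alone. No 2-week peak fell between the window's first base and 11.1 kb, where 2-week replicate 1 had a peak of 5.55.

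The far side of the Ccnd2 window held the peaks seen at both ages. At chr6:127098584-127098740 the level was 7.44 IP tags per 10 M in 6-week replicate 1, against 50.4 and 67.5 at 2 weeks, and 6-week replicate 2 had no peak there. The control level there was 0.633 tags per 10 M in 6-week replicate 1, against 12.3 and 14.3 at 2 weeks, so IP and control were both lower in that 6-week library. Its fold over control was 11.75 in 6-week replicate 1, against 4.10 and 4.73 at 2 weeks. The 6-week fold rested on 12 IP tags and 1 control tag. At 2 weeks there were 118 and 155 IP tags and 36 and 24 control tags. The 6-week peak started 10 and 46 bp from the 2-week peaks, so the tags were not counted over the same bases.

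Ccnd2 also had the one member region with a single peak in every list, chr6:127100888-127101001. Its levels were 38.4 and 21.2 IP tags per 10 M at 6 weeks, against 56.3 and 52.3 at 2 weeks. Both 6-week libraries lay below both 2-week ones. Control levels were 7.60 and 6.83 tags per 10 M at 6 weeks, against 8.19 and 13.1 at 2 weeks, also without overlap. In fits over the 4577 regions with a single peak in each list, the log2 change of 6 over 2 weeks was -0.49 ± 0.39 (SE) for IP tags, 0.01 ± 0.52 for control tags and -0.50 ± 0.55 for enrichment, the ratio of IP to control. These TMM-scaled changes are relative to the typical region. With total tags in place of TMM the control change was -0.51, as the median of all regions moved from -0.02 to -0.53. The IP change was then -0.86, as that median moved from 0.03 to -0.37.

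Ccnd2 was called in 0 of the 3 fits. The share of all regions called by edgeR (adjusted p under 0.05) was 1.09% for IP, 2.27% for control and 0.0% for enrichment, and nothing is read from the member's count. For enrichment, DESeq2 and limma-voom also called 0 regions, and 129 had an unadjusted p under 0.05 by edgeR, 28 by DESeq2 and 142 by limma-voom. DESeq2 gave no adjusted p for Ccnd2 in control tags, as its filter left 1471 of the 4577 regions to adjust. At an unadjusted p under 0.05 it was called in 0 of the 3 fits by edgeR, DESeq2 or limma-voom. The median SE of all regions was 0.41 for IP, 0.51 for control and 0.54 for enrichment with 2 libraries at each age, and for Ccnd2 the change in each fit lay within 2 of its own SE.

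Ccnd1 (chr7:152115500-152126200) had 1 region called at both ages, chr7:152125576-152125679. It had 51.5 IP tags per 10 M in 6-week replicate 1, against 45.2 and 47.9 at 2 weeks, and 6-week replicate 2 had no peak there. Where it was called, the level was much the same at both ages, but at 6 weeks this rests on replicate 1 alone. The level in 6-week replicate 2 is unknown. With levels scaled to total tags, the median IP change over the 4577 fitted regions was -0.37 (log2, 6 over 2 weeks). Control levels were 9.50 tags per 10 M in 6-week replicate 1, against 7.16 and 6.54 at 2 weeks, and the fold over control was 5.42, against 6.31 and 7.33. The other 3 regions were each called in a single list: peaks of 21.1 in 6-week replicate 1, 15.1 in 6-week replicate 2 and 3.84 in 2-week replicate 1. This last peak began 260 bp inside the window, and the nearest peaks outside lay 455 and 452 bp below the window's first base in 2-week replicates 1 and 2. They made a region called at 2 weeks only, which a window 5000 bp wider would have added.

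Nes (chr3:87774700-87784900) had the most regions called at both ages, 4 of its 11 (36.4%), close to the 33.0% of all regions. Of these, 1 was called in all 4 lists and 3 in 3 lists. The other 7 (63.6%, beside 58.6% of all regions) were called in a single list, 4 at 6 weeks and 3 at 2 weeks. Its shared region was chr3:87781831-87781982. The strongest peak there had 76.3 and 40.6 IP tags per 10 M at 6 weeks, against 76.0 and 112.8 at 2 weeks. The ages overlapped: 6-week replicate 1 stood a little above 2-week replicate 1. Each 2-week list printed a second, overlapping peak of 32.4 or 45.3 there, so the region had no single tag number per library and did not enter the fits.

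Control levels of the strongest Nes peak were 7.60 and 7.68 tags per 10 M at 6 weeks, against 8.87 and 19.6 at 2 weeks. Both 6-week values lay below both 2-week values, and the 2-week replicates stood farther apart than the 6-week ones. With levels scaled to total tags, the median control change over the 4577 fitted regions was -0.53 (log2, 6 over 2 weeks). Lower control levels at 6 weeks were thus not particular to Nes. The fold over control was 10.03 and 5.28 at 6 weeks, against 8.56 and 5.75 at 2 weeks, again overlapping.

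Each of the remaining Nes regions called at both ages was missing from 1 list. At chr3:87779786-87779943 the levels were 11.2 and 10.9 IP tags per 10 M at 6 weeks and 11.3 in 2-week replicate 2. The region chr3:87780435-87780673 had peaks of 18.2 and 13.9 in 6-week replicate 2, against 28.6 and 26.9 in 2-week replicate 1 and 35.7 in 2-week replicate 2. At chr3:87781113-87781253 there was a peak of 15.7 in 6-week replicate 2, against peaks of 16.6 and 17.5 in 2-week replicate 1 and 23.1 in 2-week replicate 2. In both of the last 2 regions 6-week replicate 1 had no peak and the 6-week levels lay below the 2-week ones. Called in 6-week replicate 1 alone was chr3:87782442-87782542, at 39.1, the highest among the Nes regions called in a single list.

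**Figure D3:**
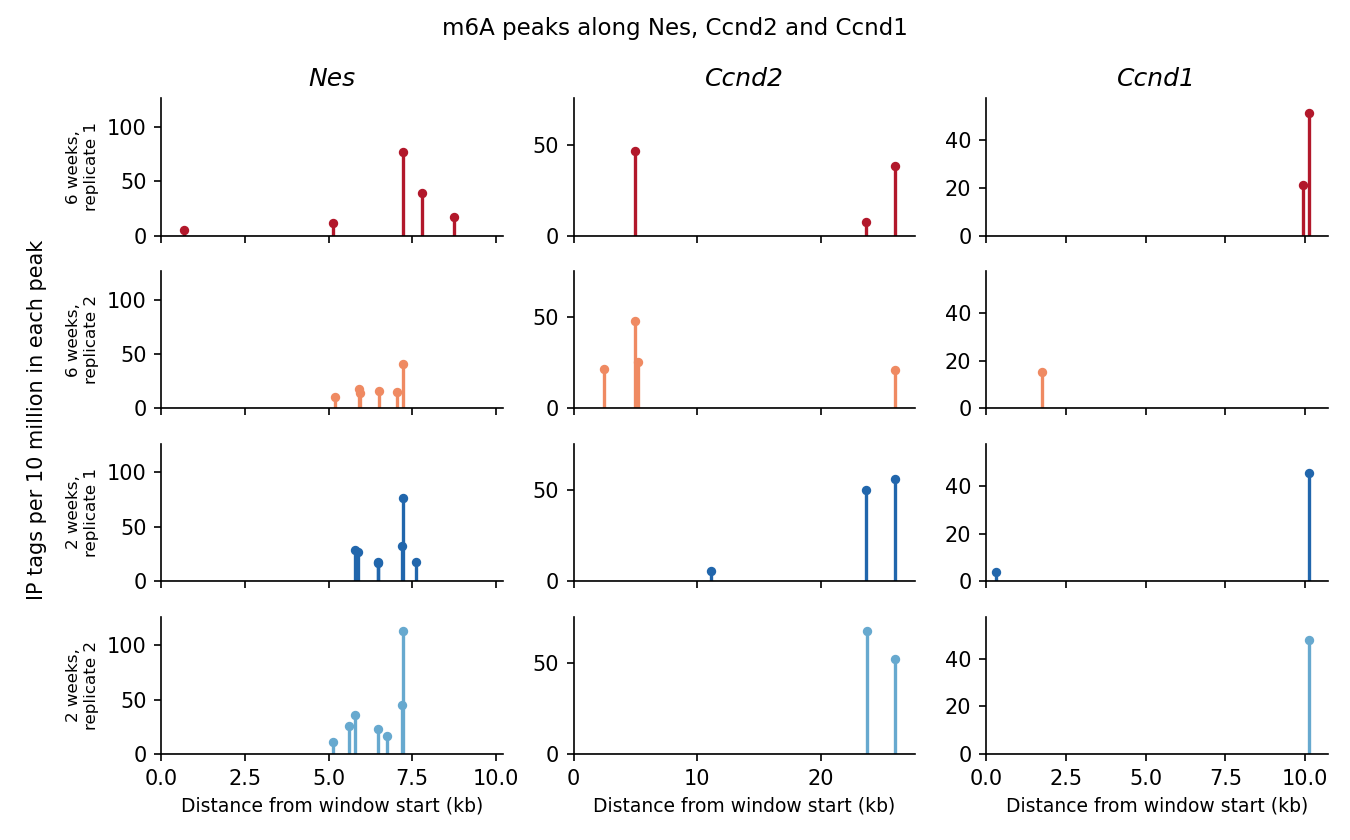
Peaks along Nes, Ccnd2 and Ccnd1 (columns) in each list (rows). The horizontal axis gives the distance in kb from the first base of the window and stem height gives IP tags per 10 M in the peak. At Ccnd2 the peaks of 46.5 and 47.9 near 5 kb appear in the 6-week lists only, and those near 26 kb in all 4 lists.

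Over Nes as a whole, the median peak had 16.7 and 15.4 IP tags per 10 M at 6 weeks, against 26.9 and 25.7 at 2 weeks. The median fold over control was 7.71 and 11.7 at 6 weeks, against 4.88 and 4.62 at 2 weeks. Levels at 6 weeks were thus the lower and folds the higher. The folds of 6-week replicate 2 rested on few control tags, a median of 2 per peak. That median was 7 in 6-week replicate 1 and 16 and 11 at 2 weeks. At the Nes region called in all 4 lists the folds overlapped between the ages. Median control levels were 4.43 and 1.71 tags per 10 M at 6 weeks, against 5.46 and 6.54 at 2 weeks. These medians run over different peaks in each list, and no test was made of them. With levels scaled to total tags, the median log2 changes over the 4577 fitted regions were -0.37 for IP and -0.53 for control.

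Mki67 peaks at 2 weeks had lower median levels than Nes peaks (6.40 and 7.62 against 26.9 and 25.7), though their ranges overlapped. Every Mki67 peak at 2 weeks had at most 16.6 IP tags per 10 M, while the 14 Nes peaks of that age ran from 11.3 to 112.8. Their median folds at 2 weeks were 7.71 and 10.6 at Mki67 and 4.88 and 4.62 at Nes. The smallest fold of any member was 3.07, at Nes in 6-week replicate 2, where the lists begin at 3.0. The weakest p-value, 8.32e-05 at Mki67 in 2-week replicate 2, equalled the largest p-value of its list.

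**Figure D4:**
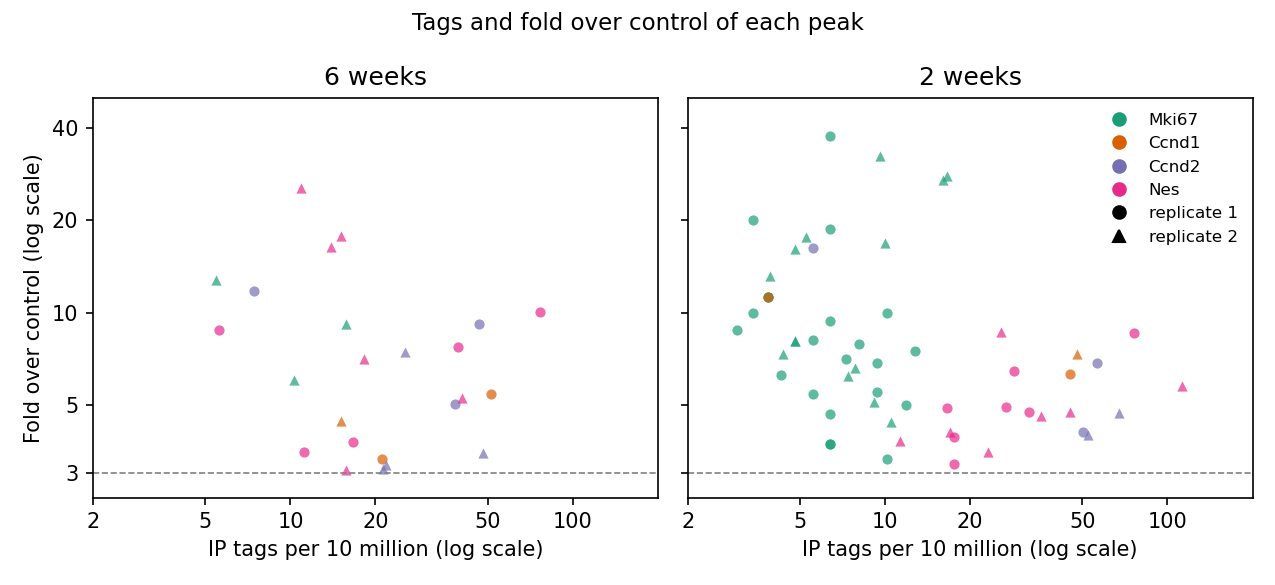
IP tags per 10 M (horizontal, log scale) against the authors' fold over control (vertical, log scale) for each member peak, 6 weeks on the left and 2 weeks on the right. Colours mark genes, circles and triangles mark replicates 1 and 2, and the dashed line is the smallest fold listed, 3.0; the Mki67 peaks at 2 weeks lie at 16.6 tags or fewer.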

How the data were processed

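Peak lists of 4 m6A-IP libraries were analysed, and the members and lists were chosen with earlier results of these data known. Per the submitters' processing notes, which give no role or order, the build was mm9 and the tools were HOMER, Cufflinks 2.2.1, Bowtie2 2.2.3 and TopHat2 (2.0.13 and 2.1.1). Per the file headers, the columns are those of HOMER's peak caller. The authors deposited 1 list per library. For its options and its control library, no value was given in the sources used here. The authors' normalized tag count is a signal in which a tag has 1 fixed value in each library. In 2-week replicate 1 the deposited IP tags are whole counts and control tags a scaled signal; the other lists deposited scaled IP tags and control tags as estimated counts, with 0.5 for none. The deposited fold ratio, p-value and score describe peaks within a list only, and the deposited focus ratio, a fraction, was not used.

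Whole tags were recovered from scaled columns: with a tolerance of 0.2 tag, 100.0% of values were whole. Peaks sharing at least 1 bp were merged. Where every list had exactly 1 peak (4577 regions), tags were fitted with edgeR 4.0.16 (quasi-likelihood, TMM, library sizes from the recovered depth, Benjamini-Hochberg over all regions, threshold 0.05), with DESeq2 1.42.0 and limma 3.58.1 as alternatives. The fit of control tags had an offset for peak width, and enrichment was the interaction of fraction and age with a sample term. The fits were tested on simulated tags drawn with a single fixed dispersion. It was not estimated from these replicates, so the test does not measure how the fits do at their noise. Replicates differed by more than sampling noise (for IP tags, chi-square over its degrees of freedom was 22.0 at 6 weeks and 16.7 at 2 weeks). The labels do not name the animals, so errors measure only the spread between these samples. All 5 genes and every region called in at least 2 lists were named by rule, with named single-list peaks chosen after their values were seen; likeness was computed for Mki67 alone. Lists of other cell-cycle, progenitor and cell type genes were not analysed here, as they need gene positions in mm9. Python 3.11.15, pandas 2.3.3, numpy 2.4.6 and R 4.3.3 were used.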

Additional observations from a re-analysis of the deposited data

How the results depend on the processing

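Over the 5 genes, regions called at 6 weeks only numbered 1, at 2 weeks only 8 and in all 4 lists 2. At 8-fold or more over control these became 0, 2 and 0, with 2 in Mki67, as fewer peaks enter. With a tag floor common to the lists they were 1, 5 and 2, with 4 in Mki67. Leaving out 1 library in turn gave 1 to 6 at 6 weeks only, 10 to 19 at 2 weeks only and 2 to 4 in all lists kept, with 8 to 16 at 2 weeks only in Mki67, since a lone list needs no second call. Over all regions the 6-week share then lay between 3.68% and 21.1% (1.92% with every library) and the 2-week share between 11.6% and 23.8% (6.41%). Counting a single list as enough, leaving out 1 library gave 5 to 12 at 6 weeks and 17 to 30 at 2 weeks, and the other settings 6 to 10 and 10 to 30. For this kind and for calls in all lists, shares of all regions under changed settings are not given here. Joining at 0.5 of the shorter peak or up to 200 bp apart, wider windows and dropping peaks that repeat a start kept the first 3 counts and that of Mki67 within 1.5 times. Member regions then numbered 25 to 48, and 5.6% to 6.62% of all regions were called at 2 weeks only.

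At the Ccnd2 region in every list, the change of control tags (0.01) was -0.51 with total tags in place of TMM and -0.0043 with starts within 20 bp, and -0.24 to 0.26 with 1 library left out; the cause was not tested. IP and enrichment changes kept their sign, at -0.36 to -0.62 and -0.10 to -0.87 with 1 library left out. No setting called this region, and DESeq2 gave its control change no adjusted p. Same-numbered libraries share only a number: deviations of their IP tags correlated at 0.026, and with a replicate block the changes were -0.50 (IP), 0.03 (control) and -0.53 (enrichment), while calls over all regions were 112 higher and 78 lower for IP, against 39 and 11 without it. Other settings moved these counts too: for IP, 0 and 0 with total tags, 60 and 44 by DESeq2, 17 and 4 by limma-voom, and from 3 and 1 to 402 and 325 with 1 library left out. For control tags they were 55 higher and 49 lower by edgeR, 21 and 370 with total tags, 22 and 13 by DESeq2 (1471 regions adjusted), 14 and 14 with starts within 20 bp (1435 regions), and from 0 and 0 to 85 and 72 with 1 library left out. Enrichment, with 0 calls, had 20 higher and 1 lower without 6-week replicate 2. Few tags limit the Mki67 peaks, and depth differs with age.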
